A study of Oryza sativa with 36 samples.

Results

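The probe sets described here are those whose transcript level under salt was raised by added abscisic acid (ABA) in roots and lowered by it in shoots. For each of 57258 rice probe sets, the mean of log2(intensity + 32) under salt+ABA minus that under salt was computed in roots and in shoots with both genotypes pooled, and the smaller of the root value and of the shoot value with its sign turned was taken as the score. The 100 probe sets with the highest score were the members. Of these, 78 were annotated with 1 gene each, which made 74 genes, and 22 had no gene in the platform annotation, 2 of which were paired with a gene locus in the study's tables. Since the salt+ABA and salt arrays chose the members, the differences between those treatments, and those of either treatment from the control, are given as descriptions without a test.

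Gene expression had been measured on Affymetrix rice arrays in roots and shoots of PL177 and IR64 at the seedling stage, with 10 µM ABA added to 140 mM NaCl (salt+ABA), with 140 mM NaCl alone (salt) and without either (control). PL177 is a salt-tolerant pyramiding line from a cross of introgression lines in the IR64 background, and IR64 is its moderately salt-sensitive parent, so that each genotype stands for 1 line. There were 3 arrays for each of the 12 groups, described by the study as independent biological replicates, and the sample labels call the shoots leaf and PL177 177-103. The labels give 4 d of treatment, whereas the methods of the study describe 11 d.

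ABA is the plant hormone that accumulates when water is short or salt is high. It binds receptors that inhibit type 2C protein phosphatases, which frees SnRK2 kinases (SAPKs in rice) to activate bZIP and other transcription factors. Among its best known targets are the late embryogenesis abundant (LEA) proteins and dehydrins, hydrophilic proteins that accumulate in the drying seed and in stressed leaves and roots, together with small heat-shock proteins, oleosome and antioxidant proteins of the embryo, and homeodomain-leucine zipper (HD-Zip) factors. ABA also antagonizes defence pathways in many plants.

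The members' root values, salt+ABA minus salt, lay between 0.66 and 2.39 on the log2 scale with a median of 0.94, against a median of 0.01 over all probe sets. Their shoot values lay between -2.24 and -0.68 with a median of -1.08, against 0.04 over all. The change passed 2-fold in 42 members in roots, in 58 in shoots and in 23 in both organs. Both genotypes went the same way for all 100 members, with median root values of 0.89 in PL177 and 1.01 in IR64, and median shoot values of -1.10 in PL177 and -1.07 in IR64. The choice of members on values pooled over both genotypes favoured this agreement, so it is a description only. The score ran down to 0.6636 for the last member, the probe set of LOC4334014, and was 0.6633 for the first probe set outside, that of LOC4339718. The border is therefore a point on a continuous scale. Member genes had 12 further probe sets, of which 7 had a root value above 0 and a shoot value below 0. The exceptions included other probe sets of T5H (-0.08 in roots and 0.05 in shoots) and PM1 (0.13 and 0.03).

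The organ labels were checked first. All 8 leaf marker genes measured, among them RBCS, RCA and CAB2R of photosynthesis, were higher in shoots, and 10 of 11 root marker genes, among them the transporters Lsi1, Lsi2 and IRT1, were higher in roots. The leaf markers were not constant in roots, where their summed intensity ranged over 6816 to 10177 under salt+ABA, 18753 to 28828 under salt and 9185 to 17471 in the control. In shoots it ranged over 82496 to 85537 under salt+ABA, 81340 to 86618 under salt and 79147 to 88149 in the control. The root markers summed to 2185 to 2730 in shoots under salt+ABA, 1628 to 2571 under salt and 4153 to 5551 in the control, and to 26107 to 39631 in roots. In roots, the leaf markers were thus lowest where the members were high, and the part of either marker list in the members' values was not tested. In whole organs, fewer cells of a type and less RNA per cell cannot be told apart. Array medians were 56.8 to 64.3, and 98 members had a mean intensity over 64, which 50.8% of all probe sets had. The array of PL177 shoots under salt numbered 3 was the highest of the 6 shoot salt arrays for 64 members, and its deviation from the mean of the 6 had a median of 0.50 over all members. Without this array the median shoot value of the members was -0.99, and 93 of the 100 members were chosen again.

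Set against the control, the members took the following course over the treatments, described without a test because the salt+ABA and salt arrays chose them. In shoots, 93 were higher under salt than in the control, and the median difference was 1.42. Under salt+ABA the median difference from the control was 0.39, so that 67 members lay between the control and salt and 33 lay below the control. In roots the median difference from the control was 1.58 under salt+ABA and 0.61 under salt. Here, 75 members were above the control under salt and higher again under salt+ABA. Another 18 were below the control under salt and above it under salt+ABA, and 7 stayed below it under both. The organ with the higher mean level changed with the treatment, as 31 members under salt+ABA, 84 under salt and 56 in the control were higher in shoots than in roots.

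**Figure D1:**
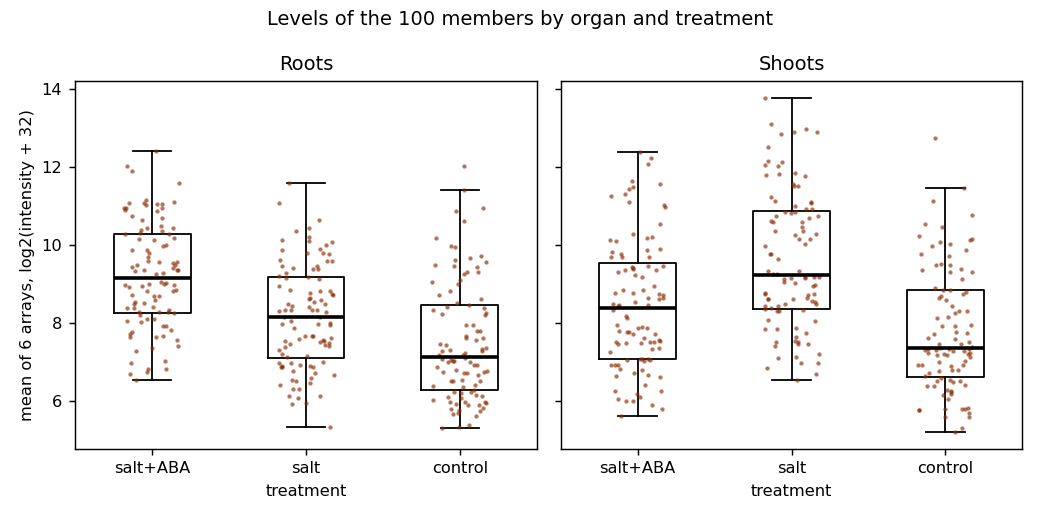
Mean level of each of the 100 members over 6 arrays (both genotypes), on the log2(intensity + 32) scale, under salt+ABA, salt and the control in roots (left) and shoots (right). Points are members, boxes the quartiles with the median as a thick line, and whiskers reach the last point within 1.5 times the box height. In roots the median level is highest under salt+ABA, and in shoots under salt.

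Arrays of both genotypes together did not overlap in much of the list. In roots, all 6 salt+ABA arrays were above all 6 control arrays for 80 members (8.21% of all probe sets), and all salt arrays were above the control for 43 (6.28%) and below it for 9 (3.59%), while salt+ABA was below the control for 3 (6.89%). In shoots, salt+ABA was above the control without overlap for 42 members (5.68%) and below it for 8 (3.59%), and salt was above it for 73 (5.63%) and below it for 1 (3.84%). In the contrast of the rule itself, salt+ABA was above salt without overlap for 72 members in roots (3.83%) and below salt for 78 in shoots (8.49%), counts that the choice of members fixed.

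The mean of salt+ABA and salt against the control was tested by limma. It uses the arrays of the rule but in a contrast orthogonal to it, since adding salt+ABA and salt gives no weight to the difference between them. This concerns array error only. A real difference between the treatments, for which the members were chosen, can still move the mean away from the control. A change of over 2-fold counted as called if its Benjamini-Hochberg p, taken over all probe sets, was below 0.05. In roots this treated mean was higher than the control for 55 members and lower for 4, where 0.707% and 0.583% of all probe sets were called. In shoots 49 members were higher and 2 lower, where 0.59% and 1.18% of all were called. The median difference of the members was 1.10 in roots and 0.89 in shoots, against 0.00016 and 0.0058 over all probe sets. PL177 alone gave 56 higher and 3 lower members in roots (0.782% and 0.569% of all) and 46 higher and 2 lower in shoots (0.54% and 0.952%). IR64 alone gave 52 and 3 in roots (0.603% and 0.512%) and 47 and 2 in shoots (0.526% and 1.01%). A call can come from one treatment alone, so the treatment that the rule placed lower was set against the control by itself, as a description. Of the 55 members called higher in roots, 54 had a mean under salt above the control, 31 of them by over 2-fold, and the exception was NSHB2. All 49 called higher in shoots had a mean under salt+ABA above the control, 35 of them by over 2-fold. Without the array of PL177 shoots under salt numbered 3, the number of higher members in shoots was 47.

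Put together, 39 members (28 genes) were higher than the control in both organs (0.166% of all probe sets), 14 in roots only (0.496%) and 10 in shoots only (0.423%). Another 2 were higher in roots and lower in shoots (0.0454%), 4 were lower in roots only (0.473%), and 31 passed in neither organ (97.3%). These 31 members had a median level in shoots of 7.50 under salt+ABA, 8.49 under salt and 7.35 in the control on the log2 scale. Their medians in roots were 8.68, 7.87 and 8.22 in the same order, so that salt+ABA and salt lay on either side of the control there. "Only" in these counts means that the test was not passed in the other organ, and the difference between the organs is given further on with its own test.

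**Figure D2:**
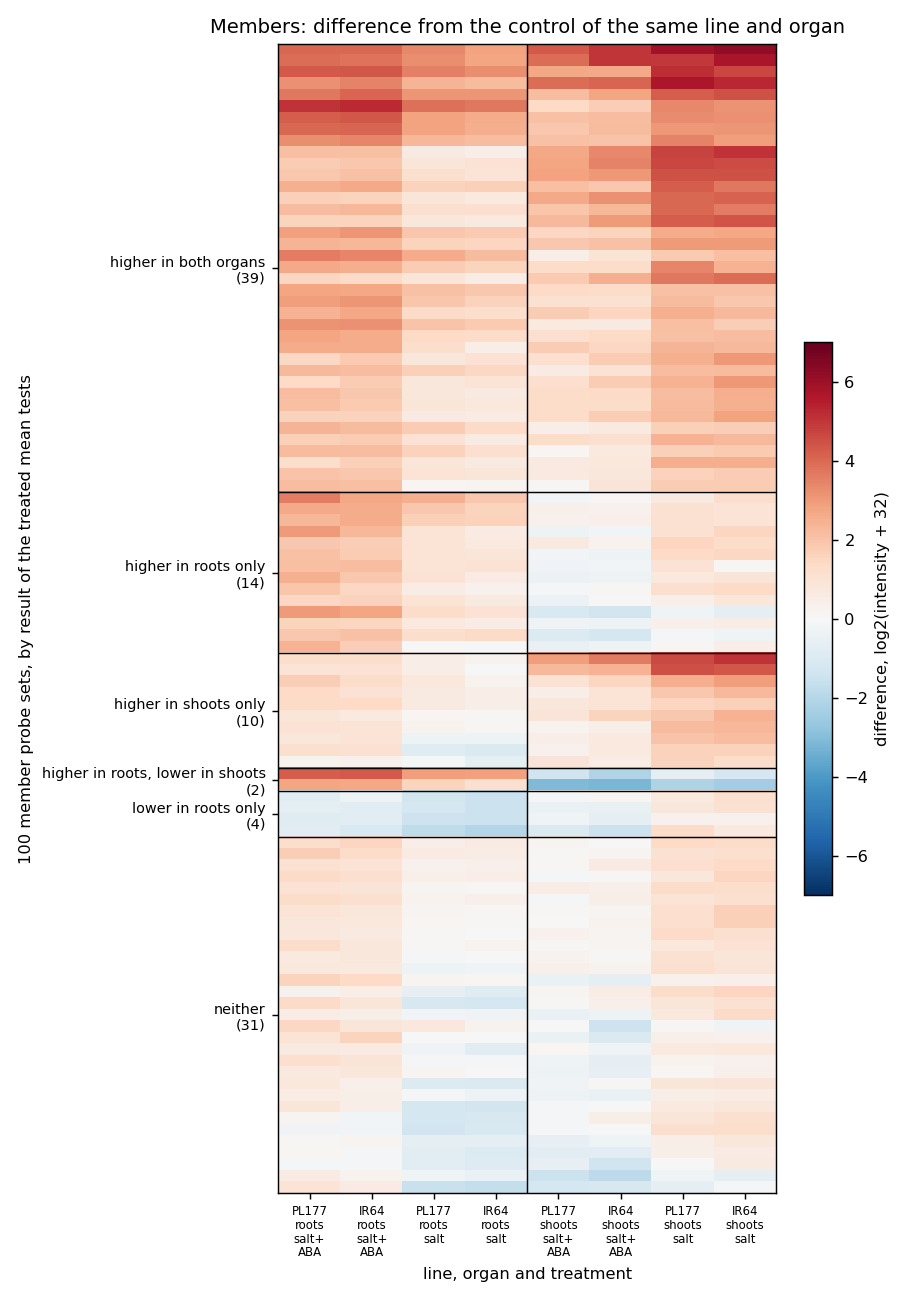
Difference of each member from the control of the same genotype and organ, on the log2(intensity + 32) scale, with red for higher and blue for lower. Rows are the 100 members, grouped by the result of the treated mean tests, and columns are salt+ABA and salt in roots (left 4) and shoots (right 4) of PL177 and IR64, 3 arrays each. Red deepens under salt+ABA in roots and under salt in shoots.

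**Figure D3:**
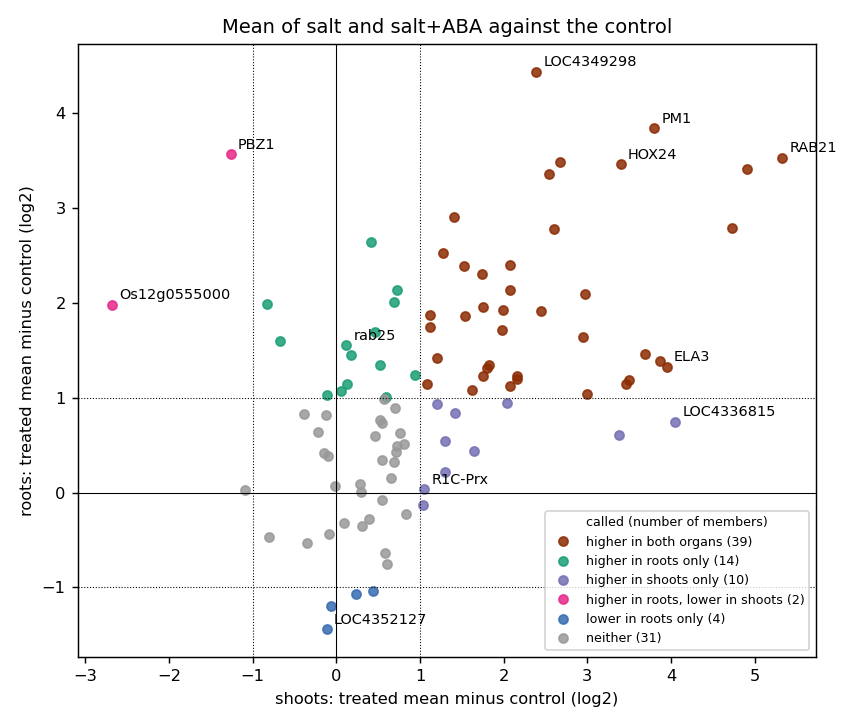
Mean of salt+ABA and salt minus the control in shoots (x axis) and in roots (y axis), in log2 units, for the 100 members. Colours give the test result, and dotted lines mark 2-fold. The 39 members called higher in both organs fill the upper right, and PBZ1 and Os12g0555000 are the only points past 2-fold both upwards in roots and downwards in shoots.

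Of the LEA proteins and dehydrins, 9 genes were listed and measured, and 5 of these were members. All 9 had a root value above 0 and a shoot value below 0, as had 10737 of all 57258 probe sets. The choice of members fixed this direction for the 5. The treated mean was higher for 7 of 9 in roots, with a median difference of 2.77. In shoots it was higher for 6, with a median of 2.60, and none was lower in either organ. Beside this list and those below, 0.707% of all probe sets were called higher and 0.583% lower in roots. In shoots the shares were 0.59% and 1.18%. The member Os08g0327700 entered the list of LEA proteins and dehydrins from the study's tables, which the study drew from these samples. It is therefore not independent evidence of that list's direction. RAB16C, RAB16B and RAB21 are dehydrins of the RAB16 family that stand side by side in the gene table of the ASM3414082v1 assembly, and RAB21 had 2 member probe sets. Values are given from here on as the lowest, the median and the highest intensity of the 6 arrays of both genotypes. RAB21 gave 826, 1083 and 1357 in roots under salt+ABA, 417, 477 and 1104 under salt and 26.1, 36.2 and 64.8 in the control. In shoots, RAB21 gave 3184, 5789 and 8187 under salt+ABA, 10867, 13647 and 20202 under salt and 65.3, 159 and 567 in the control. In roots RAB21 was above the control in every treated array, as the control stood apart from salt+ABA and salt, which overlapped. In shoots the 3 treatments did not overlap. The treated mean minus the control was 3.53 (SE 0.18, adjusted p = 2.49e-09) in roots and 5.33 (SE 0.35, adjusted p = 1.95e-07) in shoots, the largest value of any member there, and the second probe set gave 3.41 and 4.91.

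RAB16B gave 489, 606 and 755 in roots under salt+ABA, 159.7, 334 and 447 under salt and 27.3, 32.7 and 40.8 in the control. In shoots, RAB16B gave 578, 778 and 1256 under salt+ABA, 1454, 2249 and 4458 under salt and 16.9, 23.1 and 29.6 in the control. In both organs the 3 treatments did not overlap. RAB16B was thus dim in both organs in the control. The treated mean was 2.79 (SE 0.17, adjusted p = 2.12e-08) above the control in roots and 4.73 (SE 0.20, adjusted p = 7.55e-09) in shoots. RAB16C rose in both organs, by 2.77 in roots and 2.60 in shoots. Its median in roots was 729.8 under salt+ABA, 323 under salt and 42.7 in the control, and in shoots 641, 1468 and 143. RAB16D, their neighbour in the gene table, was no member, since its root value was 0.47 beside a shoot value of -1.38. Its treated mean was nonetheless 4.20 above the control in roots and 2.80 in shoots, both called.

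The other members of this list were a LEA group 1 protein, Os08g0327700, and rab25, a further dehydrin. Os08g0327700 gave 159, 221 and 245 in roots under salt+ABA, 62.9, 102 and 142 under salt and 6.62, 8.16 and 10.5 in the control. In shoots, Os08g0327700 gave 85.6, 104 and 119.8 under salt+ABA, 192, 399 and 1024 under salt and 12.5, 22.8 and 36.2 in the control. In both organs the 3 treatments did not overlap. The treated mean was 2.13 (SE 0.13, adjusted p = 1.45e-08) above the control in roots and 2.08 (SE 0.19, adjusted p = 4.23e-06) in shoots. rab25 passed in roots, with 1.56 (SE 0.10, adjusted p = 3.99e-08), and gave 0.12 (SE 0.26, adjusted p = 0.808) in shoots, where its median was 107 under salt+ABA, 199 under salt and 159 in the control. Of the LEA genes outside the members, LEA3 came close with a root value of 1.52 and a shoot value of -0.64. LIP9 had 0.11 and -0.41, and EM 0.13 and -0.10.

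Other members are known from the maturing embryo or from drying tissue. PM1, an ABA-induced plasma membrane protein, gave the largest fall of all members between salt and salt+ABA in shoots, -2.24. PM1 gave 1509, 1592 and 1974 in roots under salt+ABA, 586, 925 and 1189 under salt and 32.4, 49.5 and 90.9 in the control. In shoots, PM1 gave 213, 297 and 498 under salt+ABA, 1036, 1548 and 3117 under salt and 17.0, 22.5 and 35.0 in the control. In both organs the 3 treatments did not overlap. Its treated mean was 3.85 (SE 0.16, adjusted p = 2.68e-10) above the control in roots and 3.80 (SE 0.21, adjusted p = 5.76e-08) in shoots. Under salt, PM1 was thus higher by median in shoots, and under salt+ABA all root arrays were above all shoot arrays. Its second probe set, mentioned above, did not show this contrast.

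R1C-Prx encodes a 1-Cys peroxiredoxin, an antioxidant enzyme of embryo and aleurone. R1C-Prx gave 345, 370.0 and 483 in roots under salt+ABA, 49.8, 69.0 and 96.2 under salt and 83.7, 148 and 317 in the control. In shoots, R1C-Prx gave 26.3, 35.8 and 54.9 under salt+ABA, 63.0, 104 and 214 under salt and 14.3, 16.6 and 18.6 in the control. In roots salt+ABA stood apart from salt and the control, which overlapped, and in shoots the 3 treatments did not overlap. In roots the salt arrays were below the median of the control and the salt+ABA arrays above all of them, and the treated mean differed from the control by 0.04 (SE 0.21, adjusted p = 0.923). In shoots it was 1.05 (SE 0.16, adjusted p = 0.000458) higher, a call that fell to 0.97 without PL177 shoot salt array 3 and to 0.98 without IR64 shoot salt array 1, just under 2-fold.

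Of the same kind, the Embryo-specific 3 family protein Os05g0171200 rose by 1.93 in roots and 1.99 in shoots, and the raffinose synthase family protein Os07g0209100, which makes a sugar of seeds and stressed leaves, by 1.96 and 1.76. Os07g0209100 had a median of 1866 in roots under salt+ABA, 786 under salt and 271 in the control. In shoots the medians were 4258, 7122 and 1851, so that this gene stayed higher in shoots under every treatment. PXG, a peroxygenase, did so by a wider margin, with medians of 136, 50.4 and 22.2 in roots and 2049, 4034 and 723 in shoots, in the same order. It rose by 1.12 (SE 0.10, adjusted p = 7.51e-07) in roots and 2.08 (SE 0.18, adjusted p = 2.22e-06) in shoots. MFT1, a relative of the flowering regulator FT that is expressed in seeds, rose in roots by 1.15 (SE 0.14, adjusted p = 1.78e-05), and its shoot value was 0.13 (SE 0.18, adjusted p = 0.696). In all, 11 of the 12 probe sets of these seed and drying genes were higher than the control in roots and 10 in shoots. Of all 100 members 55 and 49 were so, and of all probe sets 0.707% and 0.59%. The grouping by annotation was made with the values known.

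**Figure D4:**
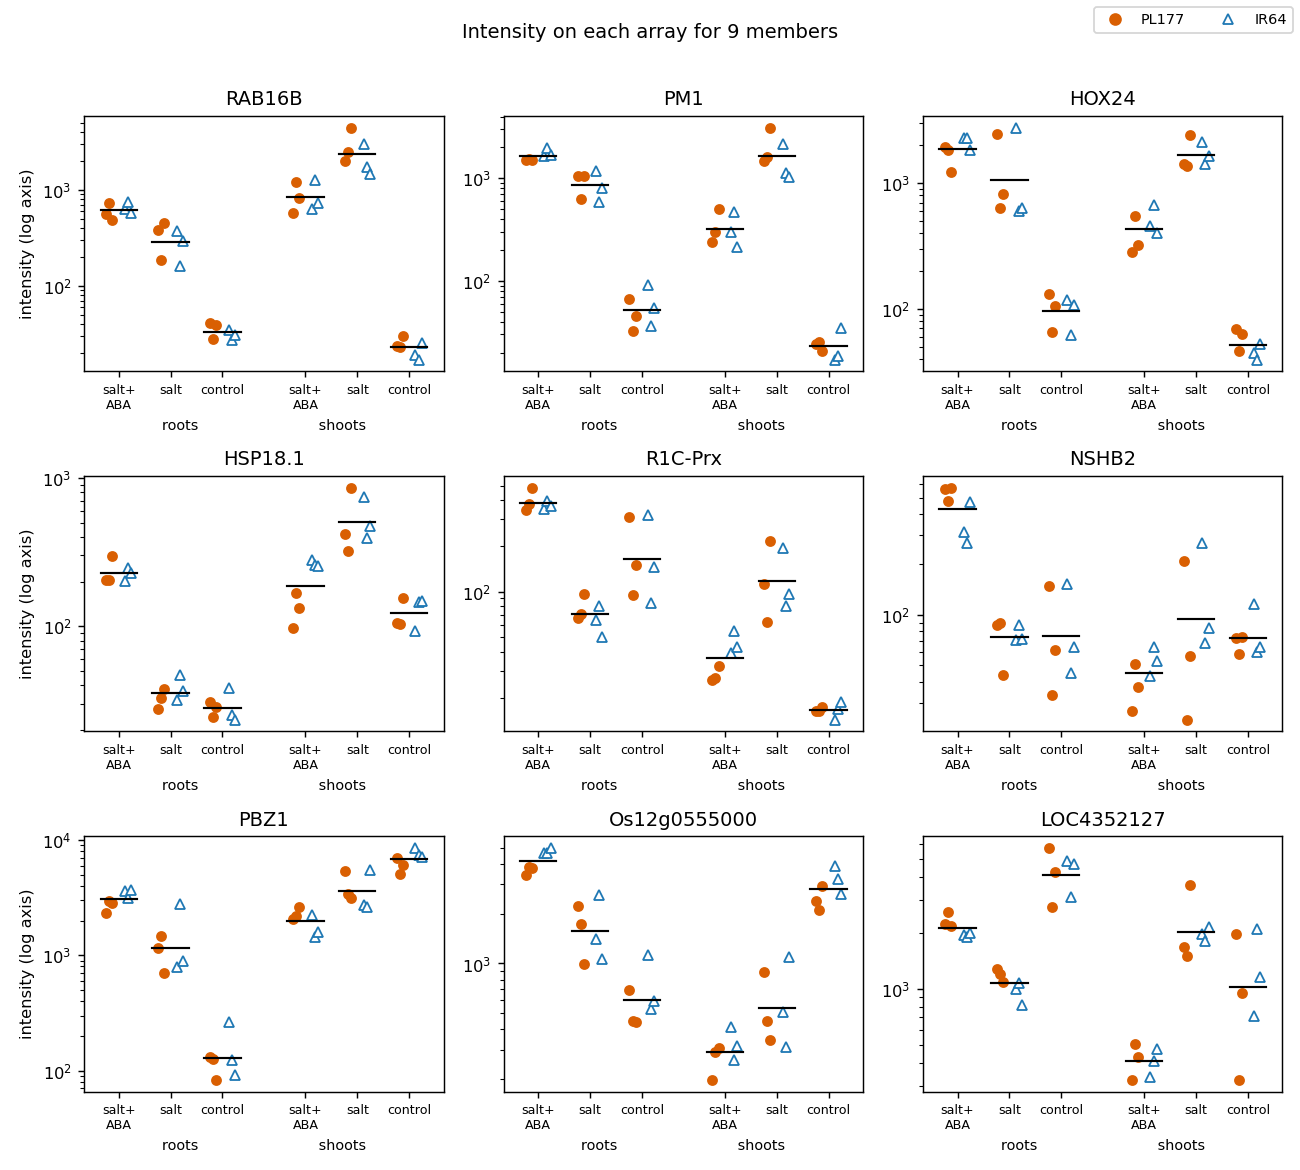
Intensity (log axis) on each of the 36 arrays for 9 members, with roots at the left and shoots at the right of each panel and salt+ABA, salt and the control in that order. Filled circles are PL177, open triangles IR64, and bars the mean of the 6 arrays taken on the log2(intensity + 32) scale. In PBZ1 and Os12g0555000 the control has the highest mean of the 3 treatments within shoots and the lowest within roots.

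Heat-shock proteins were represented by 3 of the 56 genes of their list, HSP18.1 and HSP17.4, which are small chaperones and neighbours in the gene table, and the heat-shock factor HSF01. Over the list, the treated mean was higher for 4 genes and lower for 1 in roots, and higher for 7 and lower for 2 in shoots, and the median differences were 0.14 and 0.12. HSP18.1 gave 203, 217 and 298 in roots under salt+ABA, 27.5, 34.9 and 46.6 under salt and 23.4, 26.8 and 38.1 in the control. In shoots, HSP18.1 gave 96.8, 212 and 279 under salt+ABA, 321, 446 and 858 under salt and 92.2, 126 and 154 in the control. In roots salt+ABA stood apart from salt and the control, which overlapped, and in shoots salt stood apart from salt+ABA and the control, which overlapped. In roots the salt+ABA arrays were thus above all others, and the treated mean was 1.15 (SE 0.08, adjusted p = 7.38e-08) above the control. In shoots it was 1.09 (SE 0.19, adjusted p = 0.00106) above, and 0.99 without PL177 shoot salt array 3 or without IR64 shoot control array 1, at the border of the 2-fold rule. A second probe set of HSP18.1, which was used for it in the list, had a root value of 0.19 and a shoot value of -1.12.

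HSP17.4 moved less from the control. Its medians were 275 under salt+ABA, 141 under salt and 106 in the control in roots, and 163, 275 and 128.3 in shoots, with treated means of 0.74 (SE 0.08, adjusted p = 6.39e-06) and 0.55 (SE 0.14, adjusted p = 0.0164) that missed 2-fold. HSF01 passed in both organs, with 1.23 (SE 0.23, adjusted p = 0.0011) in roots and 1.76 (SE 0.18, adjusted p = 1.63e-05) in shoots.

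The HD-Zip list had 25 genes, of which 2 were members. These were HOX24 and HOX12, which differed in level between the organs. HOX24 gave 1226, 1870.4 and 2271 in roots under salt+ABA, 595, 726 and 2751 under salt and 62.1, 107 and 132 in the control. In shoots, HOX24 gave 283, 429 and 670.0 under salt+ABA, 1369, 1526 and 2409 under salt and 39.5, 49.7 and 68.8 in the control. In roots the control stood apart from salt+ABA and salt, which overlapped, and in shoots the 3 treatments did not overlap. Both replicate 1 arrays of salt-treated roots, 2472 in PL177 and 2751 in IR64, were above all salt+ABA arrays. The other 4 were between 595 and 817. The same replicate 1 arrays stood out in other members described below, namely LOC4349298, both probe sets of LOC4351498, Os02g0158900 and LOC4341691. In these, both arrays lay within the range of the root salt+ABA arrays, and the other root salt arrays lay below it. The root values of these members thus rested mainly on the other root salt arrays. Over all members, PL177 root salt array 1 was the highest root salt array for 36. It was PL177 array 3 for 25 and IR64 array 1 for 17. The treated mean of HOX24 was 3.46 (SE 0.31, adjusted p = 1.22e-06) above the control in roots and 3.40 (SE 0.15, adjusted p = 1.31e-08) in shoots. HOX12 gave 631, 677 and 689.6 in roots under salt+ABA, 289.9, 376 and 468 under salt and 516, 549.7 and 809 in the control. In shoots, HOX12 gave 21.2, 32.7 and 61.7 under salt+ABA, 61.4, 117 and 137 under salt and 34.2, 55.6 and 109.6 in the control. In roots salt stood apart from salt+ABA and the control, which overlapped, and in shoots all 3 treatments overlapped. HOX12 was thus mainly a root transcript, and its treated mean differed from the control by -0.32 (SE 0.11, adjusted p = 0.037) in roots and 0.09 (SE 0.16, adjusted p = 0.765) in shoots. Over the list the treated mean was higher for 2 genes in roots, HOX24 and HOX22 (1.70), and for HOX24 in shoots, with none lower, and the list medians were 0.02 and 0.04.

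Genes with a role in defence were members as well. None of the 6 described here was called higher than the control in shoots, where 49 of the 100 members and 0.59% of all probe sets were. The 6 were grouped by annotation with the values known, so this count is a description only. T5H and Cht3 were higher in shoots by less than 2-fold, as given below. PBZ1 is a probenazole-induced protein of the PR10 family, and Os12g0555000 a Bet v I family protein, the family to which PR10 belongs. The gene table has 4 protein-coding genes between them. PBZ1 gave 2343, 3024 and 3705 in roots under salt+ABA, 708, 1019 and 2792 under salt and 82.9, 124 and 265 in the control. In shoots, PBZ1 gave 1431, 2123 and 2609 under salt+ABA, 2606, 3277 and 5498 under salt and 5088, 7045 and 8528 in the control. In roots the control stood apart from salt+ABA and salt, which overlapped, and in shoots only salt+ABA and the control did not overlap. In the control PBZ1 was thus a shoot transcript. The treated mean was 3.57 (SE 0.24, adjusted p = 6e-08) above the control in roots, and the difference in shoots was -1.26 (SE 0.16, adjusted p = 8.14e-05).

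Os12g0555000 gave 3417, 4215 and 4974 in roots under salt+ABA, 997, 1562 and 2589.5 under salt and 442, 563 and 1118 in the control. In shoots, Os12g0555000 gave 199, 301 and 412 under salt+ABA, 312, 482 and 1087 under salt and 2090.1, 2792 and 3886 in the control. In roots salt+ABA stood apart from salt and the control, which overlapped, and in shoots the control stood apart from salt+ABA and salt, which overlapped. By median this gene was highest in the salt+ABA roots and lowest in the salt+ABA shoots. Its treated mean differed from the control by 1.98 (SE 0.20, adjusted p = 2.83e-06) in roots and by -2.68 (SE 0.24, adjusted p = 3.37e-06) in shoots. These were the only members lower than the control in shoots by this test.

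T5H, the tryptamine 5-hydroxylase of serotonin synthesis, rose by 1.24 (SE 0.13, adjusted p = 4.72e-06) in roots. Its shoot difference of 0.94 (SE 0.15, adjusted p = 0.000653) missed 2-fold, and it passed, with 1.01, 1.001 and 1.02, without PL177 shoot salt array 1, PL177 shoot control array 2 or IR64 shoot control array 1. Pir7b, an esterase induced by pathogens, had one of the larger root values, 1.90. Pir7b gave 1123, 1256 and 1359.9 in roots under salt+ABA, 260.0, 307 and 373 under salt and 381, 795 and 1393 in the control. In shoots, Pir7b gave 205, 257 and 328 under salt+ABA, 232, 509 and 772 under salt and 195, 265 and 481 in the control. In roots salt stood apart from salt+ABA and the control, which overlapped, and in shoots all 3 treatments overlapped. The treated mean in roots differed from the control by -0.35 (SE 0.20, adjusted p = 0.229). KSL10, a diterpene synthase of phytoalexin synthesis, was dim throughout. KSL10 gave 36.3, 66.1 and 90.7 in roots under salt+ABA, 7.33, 7.80 and 11.1 under salt and 5.76, 7.29 and 9.11 in the control. In shoots, KSL10 gave 11.3, 16.5 and 25.4 under salt+ABA, 32.3, 81.1 and 100.3 under salt and 30.4, 52.7 and 69.6 in the control. In both organs salt+ABA stood apart from salt and the control, which overlapped. Its root values of salt and of the control lay far below 32, the constant added before the log2 scale, so that its differences there are understated. The treated mean of KSL10 was 0.64 (SE 0.04, adjusted p = 7.38e-08) above the control in roots, under 2-fold, and the shoot value was -0.22 (SE 0.12, adjusted p = 0.232). The chitinase Cht3, measured by a probe set that can share sequence with related genes, gave 0.32 (SE 0.13, adjusted p = 0.0692) in roots and 0.69 (SE 0.10, adjusted p = 0.000279) in shoots.

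A further 5 members act in respiration or oxidation. NSHB2 encodes a non-symbiotic haemoglobin, a class of oxygen- and nitric oxide-binding proteins. NSHB2 gave 269, 476 and 573 in roots under salt+ABA, 43.6, 79.8 and 89.2 under salt and 33.1, 63.5 and 153 in the control. In shoots, NSHB2 gave 26.7, 47.0 and 64.6 under salt+ABA, 23.7, 75.6 and 269 under salt and 58.2, 68.6 and 117 in the control. In roots salt+ABA stood apart from salt and the control, which overlapped, and in shoots all 3 treatments overlapped. In roots the rise was in the salt+ABA arrays, while salt and control values covered nearly the same range. The treated mean was 1.03 (SE 0.21, adjusted p = 0.0022) above the control there, and the call was lost at values of 0.855 to 0.998 when any of 7 arrays was left out, namely PL177 root salt arrays 1 and 2, PL177 root control arrays 2 and 3, IR64 root salt+ABA array 3, and IR64 root control arrays 2 and 3.

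AOX1a, the alternative oxidase of the mitochondrial respiratory chain, had salt values in roots below most of the control. AOX1a gave 549, 683 and 929.8 in roots under salt+ABA, 237, 295 and 392 under salt and 378, 735 and 1137 in the control. In shoots, AOX1a gave 697, 961 and 1221 under salt+ABA, 1149, 1665 and 2366 under salt and 607, 893 and 1116 in the control. In roots only salt+ABA and salt did not overlap, and in shoots only salt and the control did not overlap. The treated mean differed from the control by -0.64 (SE 0.17, adjusted p = 0.0128) in roots and 0.59 (SE 0.15, adjusted p = 0.0144) in shoots, both under 2-fold and opposite in sign. PDHE1-A, a pyruvate dehydrogenase subunit, had almost equal control medians of 58.9 in roots and 58.2 in shoots, and rose by 2.39 (SE 0.14, adjusted p = 1.73e-08) and 1.52 (SE 0.13, adjusted p = 2.73e-06). The multicopper oxidases LAC24, a laccase and the only member among 70 genes listed for the cell wall and seed storage, and LPR1 passed in neither organ. LAC24 gave -0.53 (SE 0.16, adjusted p = 0.0248) in roots and -0.35 (SE 0.19, adjusted p = 0.235) in shoots, and LPR1 gave 0.77 (SE 0.06, adjusted p = 5.81e-07) and 0.52 (SE 0.23, adjusted p = 0.134).

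The highest score of all was that of ELA3, an early nodulin-like protein of the cell surface. ELA3 gave 203, 242 and 279.6 in roots under salt+ABA, 38.0, 46.1 and 121 under salt and 26.3, 31.9 and 35.1 in the control. In shoots, ELA3 gave 917, 1167 and 1816 under salt+ABA, 2736, 4241 and 8181 under salt and 64.6, 127 and 192 in the control. In both organs the 3 treatments did not overlap. ELA3 was higher in shoots under every treatment, and rose by 1.33 (SE 0.14, adjusted p = 6.1e-06) in roots and 3.95 (SE 0.23, adjusted p = 7.45e-08) in shoots. Of the next members by score, LOC4349298 (Os10g0548100), a conserved hypothetical protein, had the largest treated mean of any member in roots. LOC4349298 gave 1528, 2077 and 2382 in roots under salt+ABA, 308, 586 and 2089 under salt and 15.2, 23.9 and 38.6 in the control. In shoots, LOC4349298 gave 76.7, 120.3 and 214 under salt+ABA, 319.9, 392 and 944 under salt and 13.8, 19.8 and 24.97 in the control. In roots the control stood apart from salt+ABA and salt, which overlapped, and in shoots the 3 treatments did not overlap. The treated mean was 4.44 (SE 0.33, adjusted p = 1.71e-07) above the control in roots and 2.39 (SE 0.20, adjusted p = 1.86e-06) in shoots. Control values were thus low in both organs, and all salt+ABA roots were above all shoots. A second probe set of this gene had a root value of -0.19 and a shoot value of -0.19 in the contrast of the rule.

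LOC4351498 (Os12g0147200), a hypothetical protein with 2 member probe sets, rose by 3.48 and 3.36 in roots and 2.67 and 2.55 in shoots. Os02g0158900, annotated as SNF4, a regulatory subunit of SNF1-type kinases in yeast, rose by 2.52 (SE 0.26, adjusted p = 4.21e-06) in roots and 1.27 (SE 0.18, adjusted p = 0.000188) in shoots. Its medians in roots were 518 under salt+ABA, 132 under salt and 21.5 in the control. Os03g0820500, an actin-binding cofilin-type protein by the study's tables, rose by 2.90 (SE 0.20, adjusted p = 8.27e-08) in roots and 1.40 (SE 0.12, adjusted p = 1.74e-06) in shoots. The platform annotation gives its probe set to LOC4331944, and whether both names mean the same gene was not checked. Another probe set of LOC4331944 had values near 0 in the contrast of the rule (-0.01 and 0.10). LOC4341691 rose by 2.40 and 2.07, and LOC4349062 by 1.64 and 2.95, in roots and shoots. LOC4347195 (1.70 by its first probe set, and 0.60, not passed, by its second) and LOC4334015 (1.46) passed in roots, and so did LOC4325642 (1.01), whose call was lost without any of 9 of the 18 root arrays. LOC4338777 passed in shoots (1.30).

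Several annotated members with lower scores, named for their annotation after their values were seen, rose in both organs. The remorin Os02g0824500 rose by 1.88 in roots and 1.12 in shoots, the UDP-glycosyltransferase Os02g0755900 by 2.31 and 1.74, and the mitochondrial import translocase protein Os03g0305600 by 1.15 and 3.46. The EF-hand protein Os10g0177200 rose in roots by 2.01 (SE 0.11, adjusted p = 5.32e-09), and its shoot value of 0.69 (SE 0.12, adjusted p = 0.000763) missed 2-fold.

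The 4 members lower than the control in roots had the opposite course there. LOC4352127 showed the largest fall. LOC4352127 gave 1908, 2087 and 2583 in roots under salt+ABA, 819, 1079 and 1284 under salt and 2749, 4483 and 5730.2 in the control. In shoots, LOC4352127 gave 324, 420.2 and 505 under salt+ABA, 1506, 1881 and 3634 under salt and 323, 1053 and 2101 in the control. In roots the 3 treatments did not overlap, and in shoots only salt+ABA and salt did not overlap. In roots its treated mean differed from the control by -1.44 (SE 0.12, adjusted p = 6.98e-07), and the salt+ABA values lay between those of salt and of the control. The values in shoots of the control ranged widely and covered those of both treatments in part, with a treated mean of -0.11 (SE 0.31, adjusted p = 0.846). LOC4349648 and the unannotated probe sets ranked 93 and 55 by score gave -1.07, -1.19 and -1.03 in roots. The call of LOC4349648 was lost (at -0.997) without IR64 root control array 3, and that of the probe set ranked 55 (at -0.953 to -0.998) without PL177 root salt array 2, PL177 root control array 1 or IR64 root control array 1.

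Without treatment, the members were spread over both organs, and this comparison draws only on the means of control arrays, which the rule did not use. In the control, 21 members were higher in roots than in shoots and 31 were lower, where 7.93% and 8.23% of all probe sets were called. The largest differences towards roots were those of LOC4352143 (3.58), the unannotated probe set ranked 70 by score (3.47), HOX12 (2.91, SE 0.16, adjusted p = 4.3e-15), LOC4339095 (2.78) and LOC4352127 (2.27). R1C-Prx (2.06), LPR1 (2.20), Pir7b (1.54), Os02g0824500 (1.49) and Cht3 (1.19) were also higher in roots. Towards shoots they were those of PBZ1 (-5.19, SE 0.26, adjusted p = 1.89e-16), PXG (-3.61), LOC4350823 (-3.50), Os03g0820500 (-2.90) and LOC4327987 (-2.90). Of the 12 probe sets of seed and drying genes, 8 were higher in shoots and 1, R1C-Prx, was higher in roots. Among the 8 were RAB21 (-1.62 and -1.61), RAB16C (-1.15), rab25 (-1.33), Os05g0171200 (-1.54), Os07g0209100 (-2.29) and MFT1 (-1.13), and the call of MFT1 was lost, at -0.99, without PL177 shoot control array 3. Of the 14 members higher than the control in roots only, 7 were higher in shoots in the control and 1 in roots.

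The response itself also differed between the organs, in a contrast again orthogonal to those of the rule, with the same limit to array error. The treated mean against the control was higher in roots than in shoots for 18 members and lower for 23, where 1.39% and 0.851% of all probe sets were called. The difference was largest for PBZ1 (4.96, SE 0.31, adjusted p = 6.98e-12) and Os12g0555000 (4.64, SE 0.32, adjusted p = 4.04e-11), followed by the unannotated probe set ranked 69 (2.86), LOC4348633 (2.29) and the probe set that the study's tables pair with Os09g0425200 (2.29). Towards shoots it was largest for LOC4336815 (-3.15, SE 0.33, adjusted p = 8.07e-08), LOC4331521 (-2.69), ELA3 (-2.49), LOC4331751 (-2.38) and LOC4332420 (-2.21). LOC4336815 gave 426, 491 and 566 in roots under salt+ABA, 170.4, 265 and 329.9 under salt and 121, 179 and 315 in the control. In shoots, LOC4336815 gave 627, 1285 and 1856 under salt+ABA, 1787, 3472 and 6144 under salt and 51.4, 99.995 and 151 in the control. In roots salt+ABA stood apart from salt and the control, which overlapped, and in shoots the control stood apart from salt+ABA and salt, which overlapped. LOC4336815 thus rose far above the control in shoots under both treatments, by 4.05 (SE 0.25, adjusted p = 1.41e-07), and in roots its treated mean differed by 0.75 (SE 0.19, adjusted p = 0.00779), under 2-fold.

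The dehydrins were divided in this respect. RAB16B (-1.79, SE 0.27, adjusted p = 2.82e-05) and RAB21 (-1.56, SE 0.40, adjusted p = 0.0063) rose more in shoots, rab25 (1.45, SE 0.29, adjusted p = 0.000627) rose more in roots, and RAB16C had a difference of 0.32 (SE 0.23, adjusted p = 0.348) that did not pass. PM1 and HOX24 also rose in both organs with differences of 0.24 (SE 0.27, adjusted p = 0.569) and 0.28 (SE 0.38, adjusted p = 0.645). For these 3 genes a difference between the organs was not shown at this precision.

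The genotypes were set against each other over all 3 treatments. Of the members, 1 differed in shoots, where it was higher in PL177 (0.0961% of all probe sets were called higher and 0.0629% lower), and none passed in roots (0.0873% and 0.0594%). In roots, 7 members and 5274 of all 57258 probe sets had an unadjusted p below 0.05 by limma. The member called in shoots was LOC4327987, which is given array by array, in the order of the replicate numbers. PL177 shoots gave 789, 867 and 791 under salt+ABA, 895, 1024 and 765 under salt and 1024, 748 and 736 in the control. IR64 shoots gave 394, 119 and 74.2 under salt+ABA, 285, 708 and 345 under salt and 630.4, 370.5 and 499 in the control. Every PL177 array was above every IR64 array, and the difference was 1.32 (SE 0.23, adjusted p = 0.0133). In roots the difference was 0.44 (SE 0.10, adjusted p = 0.049), under 2-fold. In the control alone, no member was called different between the genotypes by limma in roots (0.0664% of all probe sets were called higher and 0.0402% lower) or shoots (0.0664% and 0.0454%). An unadjusted p below 0.05 by limma was found for 1 member in each organ. Of all probe sets, 3423 had one in roots and 3272 in shoots. The member in roots was the probe set that the study's tables pair with Os09g0425200, with -0.96 (SE 0.18, adjusted p = 0.0373), under 2-fold. A second probe set of LOC4327987 had a root value of 0.74 and a shoot value of -0.10 in the contrast of the rule.

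The response to added ABA, salt+ABA minus salt, was also compared between PL177 and IR64. No member passed in roots or shoots by limma, and 0% of all probe sets did. An unadjusted p below 0.05 by limma was found for 6 members in roots and 4 in shoots. Of all 57258 probe sets, 1460 had one in roots and 839 in shoots. The difference, PL177 minus IR64, ranged from -0.78 to 0.69 in roots with a median SE of 0.33, and from -0.99 to 1.51 in shoots with a median SE of 0.41. In the contrast of the rule, the PL177 arrays of salt+ABA were above those of salt without overlap for 80 members in roots (13.4% of all probe sets) and below them for 90 in shoots (15.9%). The IR64 arrays were so for 94 (11.4%) and 97 (14.3%). The arrays in these counts chose the members, so the choice favoured the counts and they are no separate evidence of the response.

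Genes of the ABA pathway itself were not among the members. The lists of 57 type 2C protein phosphatases, 10 SAPK kinases, 19 bZIP factors and 5 genes of ABA synthesis, breakdown and reception held no member, and neither did those of 8 NAC, 6 MYB, 6 WRKY and 10 AP2/ERF factors or 79 transporters. For the phosphatases, which are themselves induced by ABA in many plants, the treated mean was higher for 4 genes in roots and none lower, and higher for 4 and lower for 2 in shoots. Their medians in the contrast of the rule were -0.04 in roots and 0.01 in shoots. The LEA proteins and dehydrins had 0.94 and -1.18, but 5 of their 9 genes were members, chosen for these values. The comparison of these lists is thus a description only. None of the 10 SAPK kinases passed for the treated mean in either organ. These lists rest on gene symbols and hold only part of each family.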

How the data were processed

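Gene expression was measured on 36 Affymetrix rice arrays, with 3 arrays for each genotype, organ and treatment. The deposited values are intensities on a linear scale, 1 per probe set and array. No source used here gives the method by which the authors summarized and normalized these intensities. The values ran from 1 to 25332, and 31.2% were below 32. The number of arrays limits the precision. Groups were taken from the sample labels, and 123 control probe sets were left out. The rule was applied to log2(intensity + 32) as deposited, so that changes of dim probe sets are understated on this scale.

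For the tests, the intensities of the arrays in a fit were quantile normalized, put on the same scale and fitted by limma 3.58.1 in R 4.3.3. Within an organ, the fits used its 18 arrays with genotype and treatment as 1 factor. Both comparisons of roots with shoots were taken from 1 fit of all 36 arrays. A call required over 2-fold, the fold threshold of the study's methods, at a Benjamini-Hochberg adjusted p below 0.05 over 57258 probe sets, and values in brackets after a difference are its standard error (SE) and adjusted p. Positive differences are salt+ABA and salt over the control, roots over shoots or PL177 over IR64. The test scripts were tested on simulated data.

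Members and gene lists were chosen with earlier results of these data known. Named were the 15 annotated members with the highest scores, members in the gene lists, up to 5 members with the largest calls per direction and test, and those at the border of the score; other annotated members were chosen after their values were seen. Gene names came from the platform annotation, the study's tables and a RefSeq gene table of the ASM3414082v1 assembly. Genes of a list were measured by the probe set with the highest mean. Probe sets ending in x, s or a can bind related transcripts; among the members named these were those of rab25, Os03g0820500, Cht3, LOC4332420 and LOC4334014, the second of RAB21 and of LOC4351498, and both of LOC4347195. Alternatives were the added constant, the normalization, a filter on dim probe sets, limma with trend and robust options, unshared variances, no fold threshold, other arrays in the fit (all 36, or the control arrays alone), the replicate number as a block, a random block of both genotypes' arrays of 1 number and treatment (chosen after seeing the data) and leaving out each array.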

Additional observations from a re-analysis of the deposited data

Results flagged for a closer look

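The response to treatment, taken as the mean of salt+ABA and salt against the control, was higher by limma in roots than in shoots for 18 members and lower for 23 (the values below are the root response minus the shoot response, in log2 units). Among members of defence and drying protection, it was higher in roots for PBZ1 (4.96), Os12g0555000 (4.64), rab25 (1.45) and MFT1 (1.05), and lower for RAB16B (-1.79), RAB21 (-1.56, and -1.27 by its second probe set) and R1C-Prx (-1.01). Among members of respiration, NSHB2 had 1.16 and AOX1a -1.23.

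Of the other annotated members, the response was higher in roots for the cofilin-type protein Os03g0820500 (1.66), the EF-hand protein Os10g0177200 (1.40) and the SNF4 protein Os02g0158900 (1.28), and lower for ELA3 (-2.49) and the import translocase protein Os03g0305600 (-2.19). It was higher for LOC4348633 (2.29), LOC4349298 (2.19), LOC4348984 (1.53), LOC4334015 (1.33), LOC4347195 (1.28), LOC4327987 (1.21) and the second probe set of LOC4351498 (1.01), and for 2 probe sets with no gene in the platform annotation (2.86 and 2.29). It was lower for LOC4336815 (-3.15), LOC4331521 (-2.69), LOC4331751 (-2.38), LOC4332420 (-2.21), LOC4349062 (-1.17) and LOC4338777 (-1.07).

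Some of these calls rested on single arrays. Leaving out 1 of the 36 arrays ended the call of R1C-Prx in 13 cases, of the second probe set of LOC4351498 in 24, of MFT1 in 6, of the second probe set of RAB21 in 5, of LOC4338777 in 3 (PL177 shoot salt array 3, PL177 shoot control array 2 and IR64 root control array 1) and of NSHB2 in 1 (PL177 root control array 2). The leaf markers measured in roots, which were lowest under salt+ABA and highest under salt, were given with the organ labels, and their part in these differences was not tested.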

How the results depend on the processing

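The choice of members depended most on the constant added to the intensity and on the genotype. Of the 100 members, 88 were shared with the list made with a constant 4 times smaller than 32, 80 with one 4 times larger, 97 with quantile normalization first, 76 with PL177 alone, 89 with IR64 alone and 91 to 100 when 1 array was left out. With the larger constant, which shrinks changes of dim probe sets, 2 members were lower than the control in roots, 17 were lower in roots than in shoots in the control, and 8 had a higher response in roots than in shoots. Without the fold threshold, 5 members were lower than the control in shoots and 8 in roots, 32 were higher in roots than in shoots in the control, and PL177 roots had 1 member higher and 2 lower than IR64 roots. Shares of all probe sets under the larger constant or without the threshold are not given here. These counts therefore describe the members alone.

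The other counts stayed within 1.5 times under the alternatives tried. Leaving out 1 array gave 47 to 50 members higher and 2 to 3 lower than the control in shoots, 53 to 57 and 3 to 5 in roots, 19 to 22 higher and 30 to 33 lower in roots than in shoots in the control, and 15 to 20 higher and 19 to 26 lower responses in roots than in shoots. The difference of the genotypes in shoots stayed at 1 member. Over 145 named results and 5141 alternative values, 4999 kept their direction and call, 126 lost the call, 16 gained it and none reversed. The larger constant accounted for 42 of the lost calls, and leaving out 1 array for 77.

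Over all pairs of groups in 1 organ, arrays with the same number had deviations that correlated by a median of 0.01 in roots and 0.04 in shoots. These pairs included both genotypes under the same treatment. Over the groups as a whole, the replicate numbers were thus not shown to pair the samples. With the replicate number as a block, the response was higher in roots than in shoots for 19 members, and the other counts of calls were unchanged. Within a treatment, PL177 and IR64 arrays with the same number deviated together in the control, at 0.58 to 0.69 in roots and 0.70 to 0.74 in shoots, and in roots under salt, at 0.15 to 0.50. For shoots under salt and for both organs under salt+ABA, 2 of 3 such pairs were over 0.1. A replicate block within treatment, chosen after seeing the data and fitted as random, left 17 members with a higher response in roots than in shoots, losing the call of the second probe set of LOC4351498 (adjusted p = 0.059 by limma) and leaving the other counts of calls unchanged. Fitting all 36 arrays together gave no other value for the difference of response, which was already fitted so.

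Changes were small against the added constant for dim probe sets, and 89 members had a mean intensity over 64 in both organs.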
